A study of Homo sapiens with 5 samples.

Results

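The ELAVL, NOVA, RBFOX and PTBP genes encode RNA-binding proteins that set which exons neurons keep and how long their mRNAs last. The 10 genes described here, ELAVL1 to ELAVL4, NOVA1, NOVA2, RBFOX1, RBFOX2, PTBP1 and PTBP2, were chosen by symbol, and all 10 of 10 were found among the 26364 gene symbols of each library. The cells were SH-SY5Y, a neuroblastoma line of human sympathetic origin whose cells can take on neuron-like features. There were 5 libraries and 5 groups, 1 library in each. The siRNA groups are siControl, siSTAU1 and siUPF1, named for the control siRNA, the one aimed at STAU1 and the one aimed at UPF1. The remaining groups are named Nondifferentiation and Differentiation. All groups were grown in DMEM with 10% serum and 1% penicillin and streptomycin. The growth media labels add 50 uM retinoic acid for both Nondifferentiation and Differentiation, so they do not say what set these 2 groups apart, and they give no duration of any treatment. The deposited data of Nondifferentiation are named as proliferation, so whether those cells had retinoic acid is uncertain, which bears on every fold that uses this library. The design text asks which transcripts were higher both after loss of STAU1 or UPF1, the proteins of Staufen-mediated mRNA decay, and with differentiation.

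ELAVL proteins bind U-rich stretches of mRNAs and mostly stabilise them. ELAVL1 (HuR) is found in nearly all cells, while ELAVL2, ELAVL3 and ELAVL4 (HuB, HuC and HuD) mark neurons. PTBP1 represses neuronal exons in dividing cells, and its paralogue PTBP2 replaces it in young neurons and declines as they mature. RBFOX proteins bind UGCAUG and NOVA proteins bind clusters of YCAY, and both families switch exons on or off according to where they bind around them. The libraries count 3' ends of polyadenylated RNA, so they give the level of each gene's mRNA and not its splicing, and a value does not grow with transcript length.

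PTBP1 and PTBP2 are tied to mRNA decay through a short exon that each gene can leave out. Its length, 34 bases, is not a multiple of 3, so leaving it out shifts the reading frame, and the shortened mRNA is a known substrate of nonsense-mediated decay, which needs UPF1. PTBP1 protein causes this skipping in its own mRNA and in that of PTBP2. The 2 exons are shown because the known decay of these mRNAs turns on them. They were read from the GENCODE 29 transcripts, 5′ to 3′, with capitals at the bases that differ between them:
PTBP1: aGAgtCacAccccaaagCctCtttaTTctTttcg
PTBP2: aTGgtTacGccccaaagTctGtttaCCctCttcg
The exons were identical at 25 of 34 bases. GENCODE 29 holds 3 transcript models of PTBP1 that skip the exon, 2 of them annotated as targets of nonsense-mediated decay, and 3 models of PTBP2 that skip it, 0 of them so annotated. Of these, 2 PTBP1 models and 3 PTBP2 models start their last exon where the coding models do. A 3' end count therefore adds the included and the skipped form together, and the values below cannot tell them apart.

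The deposited values were log2 expression values with an upper quartile between 8.63 and 8.64 in every library. That they had been brought to 1 distribution is inferred from the values and not stated in the labels. Depth, taken from the step between the lowest values of a library, ran from about 15200000 reads in siControl to 32600000 in Differentiation. With 1 library per group there is no spread between cultures and no test, and every difference below is a difference between 2 libraries. A gene was counted as measured in a comparison when the larger of its 2 values reached the median of all values above 0, and as higher or lower when its values differed by at least 2-fold, a log2 fold of 1. The counting SE given with a log2 fold covers read sampling only. The siRNA targets were lower in their libraries, STAU1 at 11.34 in siSTAU1 against 12.87 in siControl, and UPF1 at 9.20 in siUPF1 against 10.74. In Differentiation and Nondifferentiation STAU1 stood at 12.86 in both, and UPF1 at 10.69 and 10.62. The noradrenergic genes that mark SH-SY5Y were present, with 9 or 10 of 12 above each library's median. Of 10 glial, 10 epithelial and 10 blood markers, 0 reached it in any library, and the glial markers SOX10 and OLIG2 and the blood marker PTPRC were listed at 0 in all 5. Epithelial markers had a summed linear level of 560 in siSTAU1, with KRT18 at 7.56, against 63 to 134 in the other libraries. Blood markers summed to 316 in siSTAU1 and 147 in siControl, with HBB at 7.76 and 5.92. Whether RNA of another cell type had a part in the siSTAU1 values below was not tested. In bulk RNA, fewer cells of a type and less RNA per cell cannot be told apart.

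ELAVL4, RBFOX2, PTBP1 and ELAVL3 mRNAs were the most abundant of the 10. ELAVL4 was the highest of the 10 genes in every library, at 14.59 in siControl, 14.57 after STAU1 knockdown, 14.95 after UPF1 knockdown, 14.33 in Nondifferentiation and 14.97 in Differentiation. In each library it lay above at least 99.4% of all symbols with a value above 0. RBFOX2, the most widely expressed RBFOX paralogue, came next in every library, at 14.15, 14.35, 14.06, 14.02 and 14.78 in the same order. PTBP1 followed at 13.29, 13.37, 13.36 and 13.27 in the first 4 of these libraries, and stood at 12.31 in Differentiation. ELAVL3 stood at 12.91, 12.42, 12.53, 13.09 and 13.54, so that it lay below PTBP1 in 4 libraries and above it in Differentiation.

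A middle group of 3 genes lay close together. In the same order ELAVL1 stood at 11.03, 11.44, 11.02, 11.22 and 10.23. PTBP2 stood at 11.07, 11.44, 10.67, 10.86 and 10.13, and ELAVL2 at 10.84, 11.08, 10.77, 10.84 and 10.92. Their order changed between libraries, and with 1 library per group the neighbours in it cannot be separated by a spread. In Differentiation ELAVL1 and PTBP2 were at their lowest while ELAVL2 kept its level within 0.31 over all 5 libraries, the narrowest range of the 10 genes.

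NOVA1, NOVA2 and RBFOX1 made up the low end. NOVA1 stood at 9.07, 8.66, 8.81, 9.01 and 9.46, above 60.4% to 70.9% of symbols with a value above 0. NOVA2 stood at 4.88, 5.38, 4.57, 5.22 and 4.50, from about 22 to 38 reads, and did not reach the level required to be measured in any comparison. RBFOX1, a neuronal and muscle paralogue, stood at 3.81 in siUPF1, from about 13 reads, and was listed at 0 in the other 4 libraries. RBFOX3, the NeuN antigen of mature neurons, stood at 1.49 in Differentiation, from about 5 reads, and was listed at 0 elsewhere. RBFOX2 thus supplied nearly all the RBFOX mRNA counted in these cells, and NOVA1 nearly all the NOVA mRNA.

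**Figure D1:**
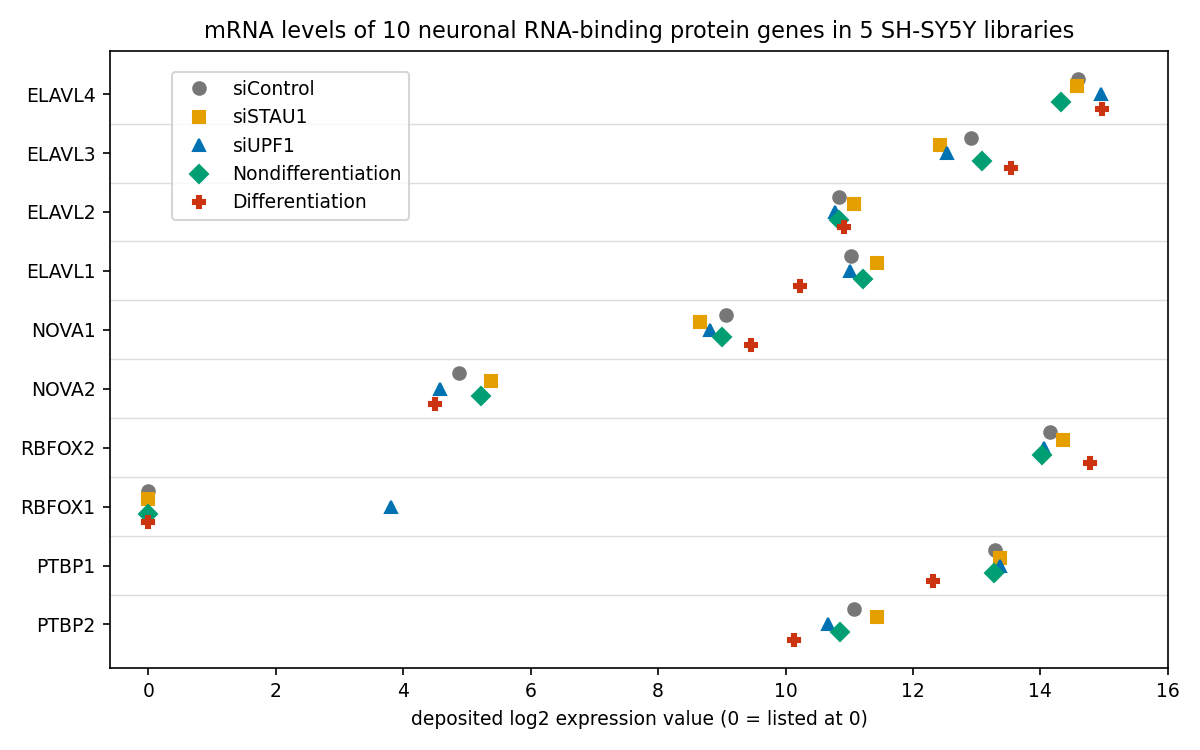
Deposited log2 expression value of each of the 10 genes (horizontal axis) in the 5 libraries, 1 symbol per library. ELAVL1, PTBP1 and PTBP2 have their lowest value in Differentiation, ELAVL3, ELAVL4, NOVA1 and RBFOX2 have their highest there, and RBFOX1 has a value above 0 in siUPF1 only.

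Differentiation against Nondifferentiation divided the genes in direction. The mRNAs of ELAVL1, PTBP1 and PTBP2 had negative log2 folds and those of ELAVL3, ELAVL4, NOVA1 and RBFOX2 positive ones, each between 1.37 and 1.99 times, while ELAVL2 was nearly level. Of the 8 measured genes 0 passed 2-fold in this pair, in which 21.4% of all 8948 measured genes did. Of all measured genes 10.4% were higher and 11% lower. At 1.5-fold 5 of 8 passed, where 43.6% of all measured genes did, 21.8% in each direction. These were ELAVL4 and RBFOX2, higher, and ELAVL1, PTBP1 and PTBP2, lower. The first count lies below the share of all genes and the second above it, and with 8 genes nothing particular to them is read from either. The median log2 fold was 0.26 over the 8 genes and 0.02 over all measured genes.

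ELAVL1 was closest to the threshold, 1.99 times lower with a counting SE of 0.0443 on the log2 fold, and so just short of 2-fold. PTBP1 had -0.96 (counting SE 0.0217), 1.95 times lower, and PTBP2 had -0.73 (counting SE 0.048), 1.66 times lower. Of all measured genes, 11% had a lower log2 fold than ELAVL1, 11.6% a lower one than PTBP1 and 17% a lower one than PTBP2. For each of these 3 genes the Differentiation library lay below all 4 others.

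On the other side, RBFOX2 had a log2 fold of 0.76 (counting SE 0.0133) and ELAVL4 had 0.64 (counting SE 0.0121). ELAVL3 and NOVA1 had 0.45 each, with counting SEs of 0.0189 and 0.0779, and ELAVL2 had 0.07 (counting SE 0.043). RBFOX2, ELAVL3 and NOVA1 were higher in Differentiation than in any other library by at least 0.39, but ELAVL4 exceeded siUPF1 there by only 0.02. NOVA2, below the measured level, had -0.73 with a counting SE of 0.338, so this value rests on few reads. The median log2 fold of 78 ribosomal protein genes was -0.61 in this pair. Relative to it ELAVL1 had -0.38, PTBP1 -0.35 and PTBP2 -0.12, while RBFOX2 had 1.37, ELAVL4 1.25, and ELAVL3 and NOVA1 1.07 each. No measured gene of the set changed direction in this pair under that scaling. Of the 8 genes 4 then passed 2-fold, all of them higher, where 30.6% of all measured genes were higher and 4.56% lower. Marker genes moved in the same pair. Of 12 noradrenergic markers 11 were measured. By the deposited values 4 were lower and 1 higher at 2-fold, where 11% of all measured genes were lower and 10.4% higher. Tyrosine hydroxylase, TH, was lowest at -3.23 and chromogranin A, CHGA, highest at 1.60. TH lay below the measured level in Differentiation, at 5.58, and CHGA in Nondifferentiation, at 6.87, so each was counted through 1 library only. CHGB, at 7.66 in Differentiation and 5.58 in Nondifferentiation, was not measured. The summed linear level of 10 mesenchymal markers was 111993 in Differentiation and 56293 in Nondifferentiation, and most of it came from fibronectin, FN1, at 16.63 and 15.45. The list had no common direction: its 5 measured genes had a median log2 fold of 0.05, with the collagen COL3A1 at 2.45, FN1 at 1.18, TWIST1 at -0.36 and vimentin, VIM, at -1.25. That of 10 blood markers was 318 and 187, led by the haemoglobin gene HBB at 7.82 and 6.75. Their part in the folds of the 8 genes was not tested.

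**Figure D2:**
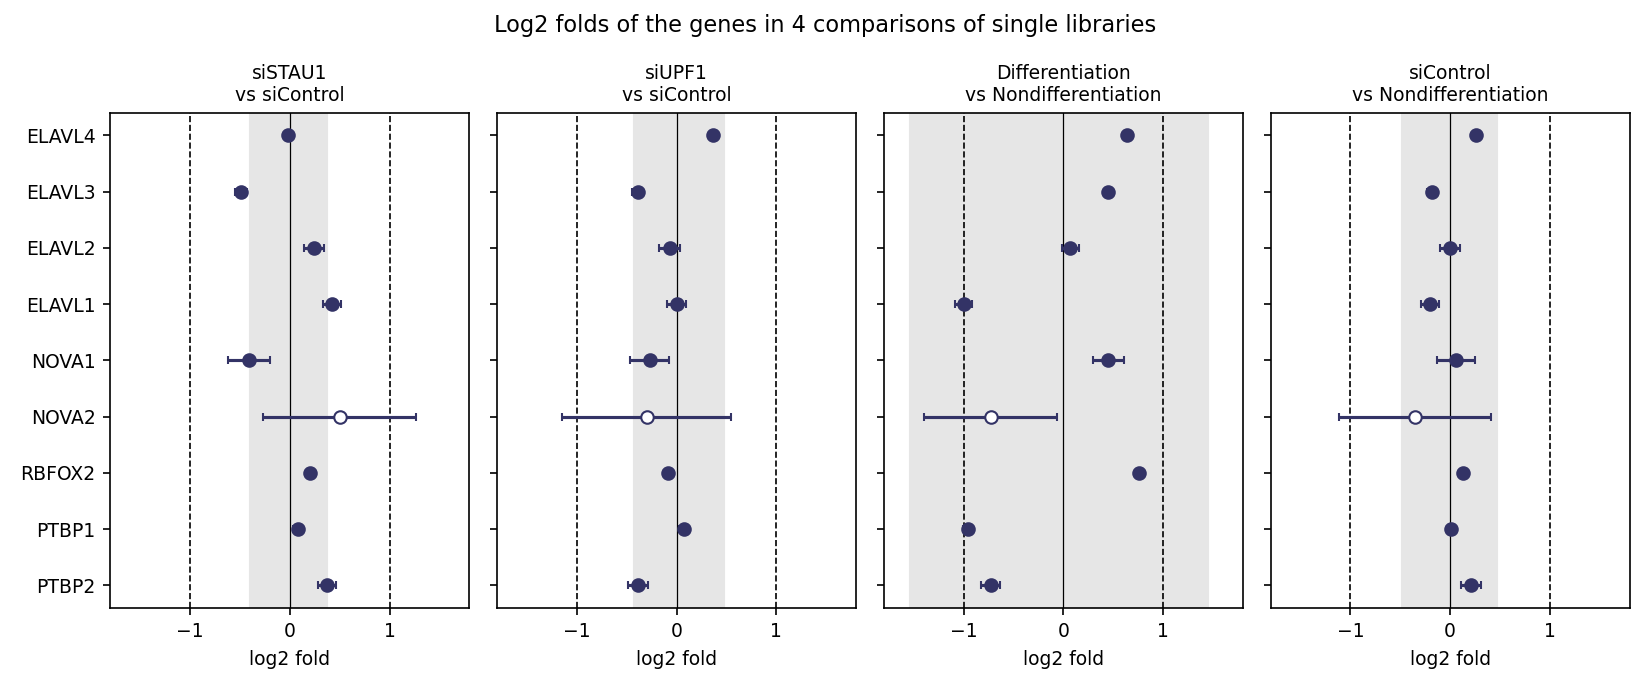
Log2 fold (horizontal axis) of 9 of the genes in 4 comparisons of 2 libraries each, with bars for the 95% counting interval, dashed lines at 2-fold, and a grey band from the 5th to the 95th percentile of all measured genes. The open symbol marks NOVA2, which was below the measured level. No filled symbol passes 2-fold, and in Differentiation all of them lie within the band, which spans -1.54 to 1.45 there.

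A ratio between 2 genes of the same library is free of any factor common to that library, although a normalization that reshapes the whole distribution can still move it. ELAVL4 mRNA stood at 8.59 times ELAVL1 mRNA in Nondifferentiation and at 26.67 times in Differentiation, against 11.81 in siControl, 8.74 in siSTAU1 and 15.2 in siUPF1. ELAVL3 stood at 3.64 times ELAVL1 in Nondifferentiation and 9.93 times in Differentiation, and between 1.97 and 3.7 times in the siRNA libraries. ELAVL2 lay below ELAVL1 in 4 libraries, at 0.77 to 0.88 times, and above it in Differentiation, at 1.61 times. Summed over the family, ELAVL1 made up 2.55% of ELAVL mRNA in Differentiation and 5.03% to 8.01% in the other libraries.

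The ratios of RBFOX2 and ELAVL3 to the repressor PTBP1 were also at their highest in Differentiation. RBFOX2 stood at 1.68 times PTBP1 in Nondifferentiation and 5.53 times in Differentiation, and between 1.63 and 1.97 times in the siRNA libraries. ELAVL3 stood at 0.88 and 2.34 times PTBP1 in that pair. The PTBP1 to PTBP2 ratio was 5.33 in Nondifferentiation and 4.54 in Differentiation, within its range of 3.81 to 6.42 in the siRNA libraries, and PTBP2 exceeded PTBP1 in none of the 5. PTBP3, the remaining paralogue, stood at 12.24 in Differentiation and 12.71 in Nondifferentiation, a log2 fold of -0.47. Its share of PTBP mRNA was 43.7% in Differentiation and between 31.3% and 36.3% elsewhere, while that of PTBP1 was 46.1% against 53.1% to 57.4%.

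**Figure D3:**
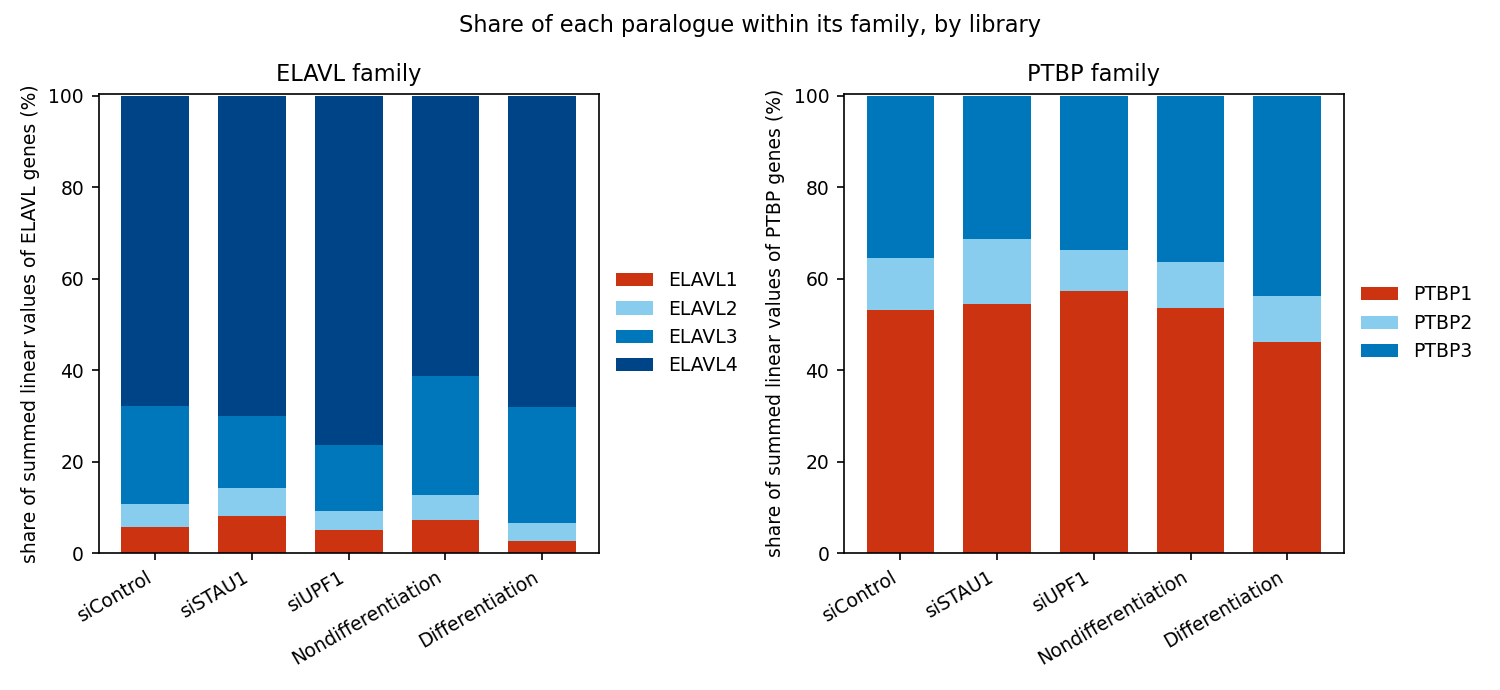
Share of each paralogue in the summed linear values of its family (vertical axis, percent) in the 5 libraries. ELAVL4 takes 61.4% to 76.5% of ELAVL mRNA in every library, ELAVL1 is smallest in Differentiation at 2.55%, and PTBP3 is largest there at 43.7%.

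Knockdown of STAU1 left the genes within 1.41 times of siControl. Of the 8 measured genes 0 passed 2-fold, where 0.201% of all 8454 measured genes did. ELAVL1 had a log2 fold of 0.42 (counting SE 0.0471) and PTBP2 had 0.37 (counting SE 0.0468), and both were at their highest of the 5 libraries in siSTAU1. ELAVL3 had -0.49 (counting SE 0.0287) and NOVA1 had -0.41 (counting SE 0.107), and both were at their lowest there. Of all measured genes 2.46% had a lower log2 fold than ELAVL3, and 96.6% a lower one than ELAVL1. ELAVL2 had 0.24, RBFOX2 0.20, PTBP1 0.08 and ELAVL4 -0.02. With Nondifferentiation as the reference ELAVL3 had -0.67, PTBP2 0.58, NOVA1 -0.35 and ELAVL1 0.22, and ELAVL4 turned to 0.24. Of the 8 genes 0 passed 2-fold against it, where 0.912% of measured genes did.

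Knockdown of UPF1 likewise left all of the measured genes within 2-fold, with 0 of 8 past it where 0.543% of all 8475 measured genes were. The PTBP genes, whose skipped forms are substrates of UPF1-dependent decay, had log2 folds of 0.07 for PTBP1 (counting SE 0.022) and -0.39 for PTBP2 (counting SE 0.0514). With all mRNA forms counted together, PTBP2 was thus 1.31 times lower and PTBP1 1.05 times higher. ELAVL3 had -0.39 (counting SE 0.0271), ELAVL4 had 0.36 (counting SE 0.0134) and NOVA1 had -0.27 (counting SE 0.1). ELAVL1 was level at 11.02 against 11.03. RBFOX2 had -0.09 and ELAVL2 had -0.07, and both were slightly positive, at 0.03 and 0.05, when set against ribosomal protein genes. With Nondifferentiation as the reference ELAVL4 had 0.62, ELAVL3 -0.56 and PTBP2 -0.19, RBFOX2 turned to 0.04, and 0 of 8 passed 2-fold where 1.37% of measured genes did. The knockdown libraries share siControl, so their folds are not independent of each other.

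The size of these folds can be set beside that of siControl against Nondifferentiation, which had no siRNA against either factor. This pair differs in control siRNA and, by the labels, in retinoic acid, so it does not measure the spread between like cultures. There the 8 measured genes differed by -0.20 to 0.26, with ELAVL4 at 0.26, PTBP2 at 0.21, ELAVL1 at -0.20 and ELAVL3 at -0.18. Of them 0 passed 2-fold, where 0.796% of measured genes did. The 2 knockdown libraries were also compared with each other, without a shared control. Of the 8 measured genes they differed most in PTBP2, which stood at 10.67 in siUPF1 and 11.44 in siSTAU1. Its log2 fold of -0.76 (counting SE 0.0484) was 1.70 times, and 0.636% of measured genes had a lower one. NOVA2, below the measured level, had -0.81 with a counting SE of 0.398. Again 0 of 8 passed 2-fold, where 0.837% of measured genes did, and at 1.5-fold PTBP2 alone of the 8 passed, where 5.33% of measured genes did. ELAVL1 had -0.42 and ELAVL4 had 0.38 in this comparison.

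Other splicing regulators were listed for comparison. Of 23 paralogues and tissue-type regulators 13 were measured in Differentiation, 4 higher and 2 lower at 2-fold, where 10.4% of all measured genes were higher and 11% lower. Of the higher ones 3 were CELF paralogues found mainly in the nervous system: CELF6 had a log2 fold of 3.60, from 4.50 to 8.10, CELF5 had 1.63 and CELF3 had 1.48. SRRM3, a paralogue of the microexon regulator SRRM4, had 3.07, from 5.34 to 8.42. SRRM3 and CELF6 lay below the measured level in Nondifferentiation and were counted only through their Differentiation value, so their folds had to be large. The lower ones were MBNL3, the muscleblind paralogue of immature cells, at -1.59 and the neural progenitor protein MSI1 at -1.09. MSI1 lay below the measured level in Differentiation, at 7.66, and was counted only through its Nondifferentiation value. SRRM4, the regulator of neuronal microexons, stood at 4.42 and 4.85, below the measured level. The median of the 13 was -0.14, and 0.47 relative to ribosomal protein genes. Against siControl 11 were measured in siSTAU1 and siUPF1, and 0 passed 2-fold in either. CELF5 was highest at 0.39 and 0.50, and MBNL2 lowest at -0.16 and -0.25. This order depended on the reference, as MBNL2 stood at 8.25 in siControl but 7.45 in Nondifferentiation. Against Nondifferentiation 0 of 11 passed 2-fold, and MBNL2 was the highest of the list, at 0.64 and 0.55. MBNL2 lay below the measured level in Nondifferentiation and was counted there only through its knockdown values.

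Of 8 listed cofactors, proteins that work with PTBP on RNA, 7 were measured, and 0 passed 2-fold in Differentiation, siSTAU1 or siUPF1. Of all measured genes 21.4%, 0.201% and 0.543% did, so with 7 genes nothing particular to them is read from this count. The median log2 fold of all measured genes in Differentiation was 0.02, and all 7 cofactors had negative ones with a median of -0.52. The lowest were SFPQ at -0.83, PCBP1 at -0.82 and HNRNPL at -0.61, and MATR3, a partner of PTBP1 in exon repression, had -0.01. Relative to ribosomal protein genes the median of the 7 turned to 0.09. Against siControl the median in siSTAU1 was -0.03, with MATR3 lowest at -0.27 and HNRNPL highest at 0.18. In siUPF1 it was -0.13, with SFPQ lowest at -0.27. Against Nondifferentiation the medians were 0.10 in siSTAU1 and 0.04 in siUPF1.

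mRNAs that PTBP1 is reported to keep low, by steering them into decay or by holding back an intron, were on the higher side in Differentiation. Of 6 listed 4 were measured, all 4 had positive log2 folds, and 2 were higher at 2-fold, where 10.4% of measured genes were. DLG4, which encodes the postsynaptic scaffold PSD-95, had 1.13, from 10.28 to 11.42. GABBR1, a subunit of the GABA-B receptor, had 1.22, from 10.00 to 11.22. The synaptic vesicle proteins VAMP2 and SV2A had 0.99 and 0.40. The neuronal kinesin KIF5A, at 5.84 and 7.74, was below the measured level. The median of the 4 was 1.06, and 1.67 relative to ribosomal protein genes. In siUPF1 0 of the 4 passed 2-fold: DLG4 stood at 10.67 against 10.08, a log2 fold of 0.60, GABBR1 had 0.27, VAMP2 -0.21 and SV2A -0.22. These are levels of mRNA ends only, and whether any of them followed PTBP1 was not tested. In siSTAU1 DLG4 had 0.13, GABBR1 -0.09, SV2A -0.22 and VAMP2 -0.34. Against Nondifferentiation DLG4 had 0.39 in siUPF1 and -0.08 in siSTAU1.

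mRNAs reported to be bound by ELAVL proteins had folds in both directions in Differentiation. Of 19 listed 15 were measured, 1 higher and 5 lower, where 10.4% of all measured genes were higher and 11% lower. The median was -0.66, or -0.05 relative to ribosomal protein genes, and any relation to the ELAVL levels was not tested. Of the lower ones CCNB1 at -3.26, CCNA2 at -2.08 and CCND1 at -1.08 are cyclins of the cell cycle, VEGFA at -1.46 is an angiogenic growth factor, and MSI1, also listed above, had -1.09. CCNB1, CCNA2 and MSI1 lay below the measured level in Differentiation, at 6.24, 7.61 and 7.66, and were counted only through their Nondifferentiation value. The higher one was the hypoxia factor HIF1A at 1.32. The measured neuronal mRNAs of the list lay within 2-fold in both directions, with the growth cone protein GAP43 at 0.51, tau, MAPT, at 0.20, NRN1 at -0.39, the neurotrophin BDNF at -0.66 and MARCKS at -0.78. ACHE, acetylcholinesterase, was below the measured level at 6.54 against 5.09. MYCN and MYC, at 5.86 and 6.34 in Nondifferentiation, were listed at 0 in Differentiation. Against siControl 16 were measured in siSTAU1 and 0 passed 2-fold, with MYC highest at 0.73 and CDKN1A at 0.47. In siUPF1 15 were measured and 0 passed, with CDKN1A, the p21 cell cycle inhibitor, highest at 0.94 and CCNA2 lowest at -0.47. CDKN1A stood at 9.83 in siControl but 11.66 in Nondifferentiation, so against Nondifferentiation it was lower in both, at 10.30 and 10.77. With that reference 1 of 16 was higher at 2-fold in siSTAU1, MYC at 1.54, and 1 lower, CDKN1A at -1.36, where 0.912% of measured genes passed. MYC lay below the measured level in siControl, at 7.15, and in Nondifferentiation, at 6.34. It was measured only through its siSTAU1 value, 7.88, so it entered both comparisons because it was high there. In siUPF1 0 of 15 were higher and 1 was lower, where 1.37% passed.

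REST, which keeps neuronal genes silent outside neurons, and its partners were all measured, 13 of 13. In Differentiation 0 were higher and 2 were lower at 2-fold, where 11% of measured genes were lower: the corepressor RCOR2 at -1.58 and the histone demethylase KDM1A at -1.04. REST itself had 0.72, from 9.88 to 10.61, and RCOR3 and the phosphatase CTDSP1 had 0.98 and 0.89. The median was 0.41, and 1.02 relative to ribosomal protein genes. In siSTAU1 and siUPF1 0 of 13 passed 2-fold, with BTRC, which targets REST for destruction, lowest in siSTAU1 at -0.51, and RCOR2 lowest in siUPF1 at -0.40.

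**Figure D4:**
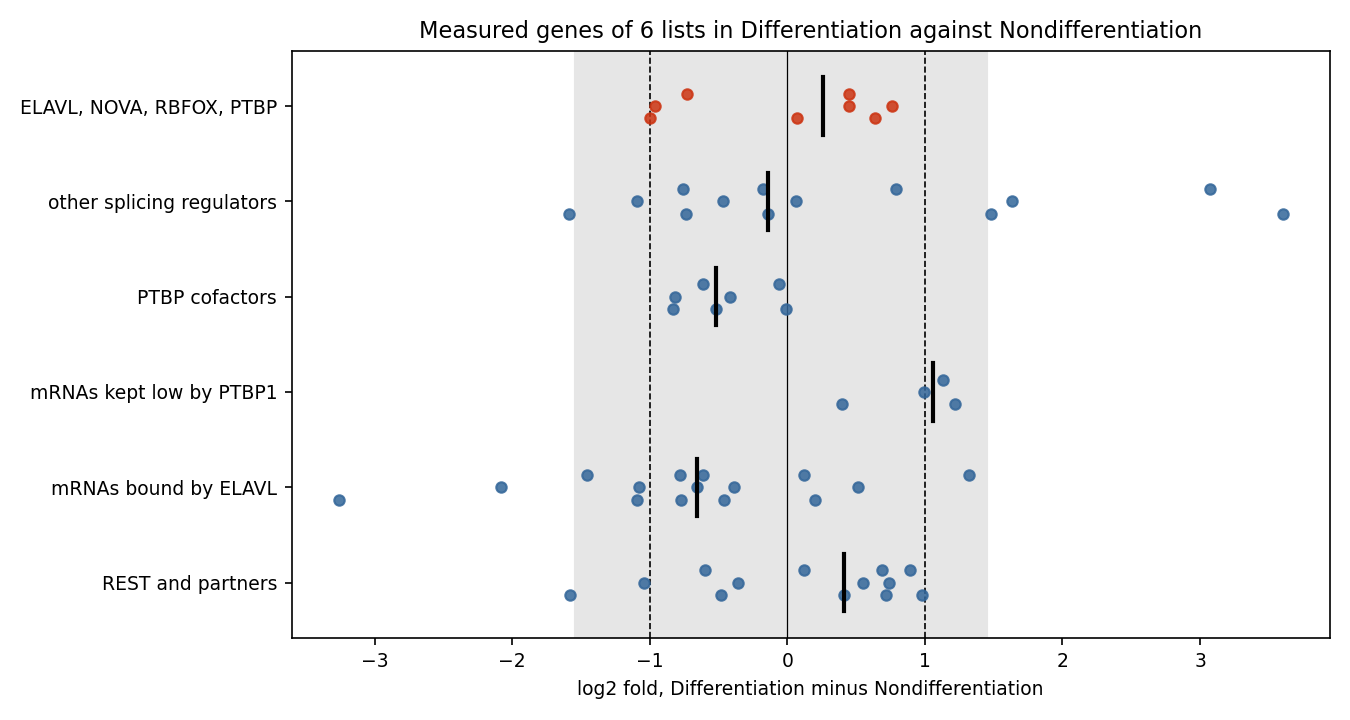
Log2 fold of Differentiation minus Nondifferentiation (horizontal axis) for the measured genes of the 10-gene set and of 5 related lists, 1 point per gene, with a black bar at each median, dashed lines at 2-fold and a grey band from the 5th to the 95th percentile of all measured genes. The mRNAs kept low by PTBP1 have the highest median, 1.06, and the mRNAs bound by ELAVL the lowest, -0.66.

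Genes with profiles closest to a member were sought by Euclidean distance over the 5 libraries, each profile centred on its mean, among genes above 0 in every library. The pool held 9172 genes. Because no measured member passed 2-fold, the 5 members past 1.5-fold in Differentiation were used, a choice made after their values were seen. Nearest to PTBP1 was the splicing factor TRA2B, at a distance of 0.06, and nearest to RBFOX2 was the spectrin SPTBN1, at 0.05. ELAVL1 was nearest to SAC3D1 at 0.10, ELAVL4 to SGSM2 at 0.10 and PTBP2 to PRTFDC1 at 0.12. Such likeness over 5 libraries describes these libraries only.

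PTBP1 and PTBP2 both had negative log2 folds in Differentiation, short of 2-fold, and the start regions of these genes are shown for comparison of their make-up. RefSeq windows on build GRCh38.p14, of 300 bases around a gene start, most of them before it, were found for 7 of the 10 genes, without ELAVL1, ELAVL3 and RBFOX2. The first PTBP1 window lies at chr19:797202-797501 on the plus strand and the PTBP2 window at chr1:96722388-96722687 on the plus strand. Both are written 5′ to 3′, with capitals at the GC box GGGCGG and the CCAAT box CCAAT on either strand:
PTBP1: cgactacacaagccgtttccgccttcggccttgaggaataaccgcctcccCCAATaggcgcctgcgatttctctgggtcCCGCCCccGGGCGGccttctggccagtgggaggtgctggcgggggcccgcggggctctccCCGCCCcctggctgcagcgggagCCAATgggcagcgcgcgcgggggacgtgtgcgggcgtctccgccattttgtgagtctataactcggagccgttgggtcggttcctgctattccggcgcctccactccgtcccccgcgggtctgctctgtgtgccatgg
PTBP2: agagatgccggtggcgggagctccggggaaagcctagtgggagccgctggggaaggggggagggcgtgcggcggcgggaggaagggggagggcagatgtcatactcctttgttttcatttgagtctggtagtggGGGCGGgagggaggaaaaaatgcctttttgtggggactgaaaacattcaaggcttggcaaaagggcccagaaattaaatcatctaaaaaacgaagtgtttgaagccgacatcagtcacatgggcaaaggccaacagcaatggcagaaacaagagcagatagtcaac
The first PTBP1 window had 3 GC boxes, 2 CCAAT boxes and 69.3% G and C. The second PTBP1 window, at chr19:797734-798033 and not shown, had 2 GC boxes and 0 CCAAT boxes. The PTBP2 window had 1 GC box, 0 CCAAT boxes and 54% G and C. Of all 35116 windows 45% held a GC box and 34.6% a CCAAT box. The retinoid receptor half-site AGGTCA, sought on both strands and present in 13.8% of all windows, was at 0 in each PTBP1 and PTBP2 window. A match or its lack describes these letters only and says nothing of binding.

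Reads at the 3' ends were checked for a second possible source. Of 50-base stretches in the last 500 bases of the GENCODE 29 coding models, none of ELAVL1, ELAVL2, ELAVL4, NOVA1, NOVA2, RBFOX2, PTBP1 and PTBP2 occurred in a transcript of another gene. ELAVL3 shared 14% with an overlapping model, AC008481.3, that has no symbol of its own in the files, and RBFOX1 shared 8 of 3562 with SRP14-AS1, the most with any gene, which stood between 5.53 and 6.46. MIR4745 overlaps the last 500 genomic bases of a PTBP1 coding model but shares none of the 50-base stretches of the PTBP1 3' ends. It was listed at 0 in every library, which says nothing of reads at those ends.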

How the data were processed

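The 10 genes and all gene lists were chosen with earlier results of these data known. RNA was extracted with Trizol and 500 ng entered a Lexogen QuantSeq kit, per the labels' protocols. The submitters' processing notes list Bowtie2, edgeR and hg19, with no role or version attached. How reads were counted, on which annotation and whether by strand were not given in the sources used here. Deposited files hold log2 values by the authors, 1 per symbol. Of the values above 0, converted from log2, 100% came within 0.001 of a multiple of 1/5, and the highest log2 value was 18.01 in each library, a pattern of quantile normalization that is inferred from the values. Such scaling removes differences in total RNA. A value of 0 stands apparently for no reads, so no fold is given against it.

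Log2 folds were differences of deposited values. The linear value of 1 read was the slope over the 50 lowest levels, between 0.599 in Differentiation and 1.29 in siControl, and was applied at all levels, so read numbers of abundant genes are approximate. The genes named were drawn from the members, RBFOX3, PTBP3, up to the 3 highest and 3 lowest of each list per comparison, and any listed gene past 2-fold. REST, SRRM4, KIF5A, MYC, MYCN, BDNF, NRN1, MARCKS, ACHE, TWIST1, CHGB, ESRP1, ESRP2, KRT18, HBB and CDH1, where outside this rule, were named after their values were seen. The steps were tested on simulated data. Alternatives were another reference library, other floors, a pseudocount of 16, recentring and a 1.5-fold threshold. Python 3.11.15 was used, together with pandas 2.3.3, numpy 2.4.6 and matplotlib 3.10.9.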

Additional observations from a re-analysis of the deposited data

How the results depend on the processing

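The number of measured members past 2-fold was 0 in all 5 comparisons. In Differentiation against Nondifferentiation it became 1 (ELAVL1) when folds were recentred by the median of all measured genes, with 21.4% of all measured genes past 2-fold. It became 4 (ELAVL3, ELAVL4, NOVA1 and RBFOX2) when recentred by ribosomal protein genes, with 35.1% of all measured genes past it, and 5 at a 1.5-fold threshold. In siUPF1 against siSTAU1 it became 1 (PTBP2) at 1.5-fold. It stayed at 0 under the other alternatives run: Nondifferentiation as reference, no floor, an upper quartile floor and a pseudocount of 16. Recentring by ribosomal protein genes changed the sign of 5 of 40 member folds, none of them in Differentiation against Nondifferentiation, and Nondifferentiation as reference changed 2 of 16. Depth limits NOVA2 and RBFOX1, which rest on at most 38 reads in any library. No paired analysis was possible because each group has 1 library.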

Other observations

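RBFOX1 was 1 of 4 symbols that stood at or above 3.81 in siUPF1 and were listed at 0 in the other 4 libraries. The others were ANKRD2 at 4.50, FAM26F at 4.04 and STARD8 at 3.81, named after their values were seen. The same count was 0 in siControl, 8 in siSTAU1, 6 in Nondifferentiation and 27 in Differentiation, out of 26364 symbols. The epithelial splicing regulator ESRP1 was listed at 0 in 3 libraries, stood at 5.25 in siSTAU1 and at 3.10 in Differentiation, while its paralogue ESRP2 stood between 6.04 and 7.31 in all 5. The epithelial cadherin CDH1 was listed at 0 in siControl, siUPF1 and Nondifferentiation, and in siSTAU1 its value was 5.21. Whether RNA of another cell type had a part in these values was not tested.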
